A study of Schizosaccharomyces pombe with 15 samples.

Results

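This account describes 19 protein-coding genes of fission yeast whose mRNA was high 10 min after cells were exposed to atmospheric-pressure plasma, and had come down by 30 min. Such plasma is an ionised gas and a source of reactive oxygen and nitrogen species. The genes were chosen from the measured levels themselves. Mean CPM (read counts scaled by library size, with TMM scaling for library composition) had to be at least 5 over all 15 libraries. The mean at 10 min had to be at least 2 times that without irradiation, and the mean at 30 min at most 0.67 times that at 10 min. Non-coding genes, whose identifiers start with SPNCRNA, were set aside. The rule found 19 of 6998 genes listed, of which 5214 had enough counts to be tested, and all 19 passed that filter. They are 19 of the 159 genes that were raised at least 2-fold at 10 min among the 4215 that met the level and identifier limits. The other 140 of these 159 genes stayed above 0.67 times their 10 min level at 30 min and are called the sustained genes below. Of the non-coding genes, 2 also met the limits on values.

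The cells were wild-type JY450 grown in YE medium and placed, in the log or the stationary phase, on a membrane filter lying on YE agar for irradiation. There were 5 groups of 3 biological replicates, all of that strain: H2O2-treated cells, non-irradiated cells, and cells 10, 15 and 30 min after plasma. The labels do not say which growth phase applies, how strong the plasma was, or how much H2O2 was given and for how long, and the control libraries carry no time of their own. H2O2 stands as a single group with no time in its labels, so it is set beside the plasma times without matching dose or duration. Libraries are named by the letters a to c in the count tables, which the labels do not tie to their replicate numbers.

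In fission yeast, oxidative and other stresses activate the MAP kinase Sty1, which acts through the bZIP factors Atf1 and Pcr1 on a broad set of stress genes. Atf1 and Pcr1 bind the cyclic AMP response element (CRE), whose core is TGACGT. Pyp2 is a tyrosine phosphatase that removes phosphate from Sty1, and its own gene is switched on through Sty1 and Atf1, a textbook negative feedback loop. A separate bZIP factor, Pap1, drives much of the peroxide and drug efflux response. Counts of steady-state mRNA do not separate synthesis from decay.

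The 19 genes cover a few roles. Transcription regulators were the largest kind, with 6 members: rsv2 (a zinc finger factor), SPCC320.03, SPAC2H10.01 (both annotated as transcription factors), gti1 (an inducer of gluconate transport), rep1 (an activator of the MBF cell cycle factor) and gsf1 (a repressor of flocculation). The annotation gives gsf1 by name alone, and its role here is background knowledge. Signalling and ion channel genes were pyp2, oca2 (a serine/threonine kinase), sfk1 (inositol lipid signalling) and msy1 (a mechanosensitive ion channel). Membrane transporters were ght2 (a hexose-proton symporter), mfs1 (major facilitator family), SPBC36.02c (spermidine family) and SPCC794.04c. The remaining 5 were wwm3 and smp4, which the annotation also gives by name alone, SPAC27D7.11c (But2 family), SPCC417.16 (annotated as a subunit of the NADH:ubiquinone reductase complex) and SPBC19C7.04c (uncharacterised).

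The promoters were searched for 9 short motifs in a window of 250 bases before to 50 bases after the RefSeq transcript start (ASM294v3), on both strands. The CRE core TGACGT was found in 5 of the 19 windows, or 26.3%, namely those of wwm3, smp4, rsv2, ght2 and SPCC417.16. The share was 30.0% in the 140 sustained genes and 5.75% in 4176 coding genes of at least 5 CPM. The sequences are shown because wwm3, smp4, rsv2 and ght2 are among the 7 members with the highest 10 min ratios, and they let the position of each match be read. For wwm3 (chrII:202057-202256, plus strand), smp4 (chrIII:954971-955170, plus strand), ght2 (chrII:3426960-3427159, plus strand) and SPCC417.16 (chrIII:1703508-1703707, minus strand), the 200 bases before the outermost of the RefSeq and the deposited start are given 5′ to 3′. For rsv2 (chrII:3532870-3532899, plus strand) only the 30 bases around a match are given, since its window lies inside the longer transcript of the deposited table. Capitals mark the CRE core, on either strand.
wwm3: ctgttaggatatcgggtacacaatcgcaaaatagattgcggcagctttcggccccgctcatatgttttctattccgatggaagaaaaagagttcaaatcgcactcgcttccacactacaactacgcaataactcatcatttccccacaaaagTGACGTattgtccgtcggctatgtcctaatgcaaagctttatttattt
smp4: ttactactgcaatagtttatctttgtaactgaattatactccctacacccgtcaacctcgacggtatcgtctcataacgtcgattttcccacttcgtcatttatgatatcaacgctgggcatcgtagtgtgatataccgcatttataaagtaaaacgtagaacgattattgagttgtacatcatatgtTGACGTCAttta
ght2: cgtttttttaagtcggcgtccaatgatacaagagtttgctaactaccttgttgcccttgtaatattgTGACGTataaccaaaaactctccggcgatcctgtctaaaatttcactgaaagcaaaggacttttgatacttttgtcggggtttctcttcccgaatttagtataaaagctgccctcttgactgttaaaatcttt
SPCC417.16: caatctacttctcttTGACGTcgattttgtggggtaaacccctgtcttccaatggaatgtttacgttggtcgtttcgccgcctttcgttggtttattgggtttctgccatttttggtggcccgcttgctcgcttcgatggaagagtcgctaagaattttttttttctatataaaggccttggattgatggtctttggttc
rsv2: aatcagacgctTGACGTCAttctttatata

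The match began 48 bases before the outermost start in wwm3, 12 bases in smp4, 133 bases in ght2 and 185 bases in SPCC417.16, and 47 bases before the RefSeq start in rsv2. In smp4 and rsv2 the core stood as the full palindrome TGACGTCA. With windows placed before the deposited starts, 5 members again held the core, with SPCC320.03 in place of rsv2. The windows of pyp2, SPCC794.04c, oca2 and the rest, 14 in all, held no such match. The TATA core TATAAA was in 12 of 19 windows against 48.0% of the coding background, and the Pap1-type site TTANTAA in 4 against 31.1%. The heat shock element core GAANNTTC and the MluI box ACGCGT were in 0 of 19 windows, where they stood in 11.3% and 3.02% of the background. The forkhead site GTAAACA was in 3 windows, the AP-1 consensus TGANTCA in 0, and the STREP-type element CCCCTC and the HomolD box CAGTCACA in 1 each, beside background shares of 16.2%, 7.18%, 2.18% and 2.80%. Some of these counts moved with the start used: in windows before the deposited starts TGANTCA was in 3 windows (gti1, pyp2 and rsv2; 15.8% against 7.28%), GTAAACA in 5 (26.3% against 16.3%), TTANTAA in 3 (against 33.2%) and TATAAA in 13 (against 50.2%), and the other 4 motifs had the same counts. In the 140 sustained genes, with windows at the RefSeq start, TATAAA stood in 40.7%, TTANTAA in 30.0%, GAANNTTC in 10.0% and ACGCGT in 1.43%. There GTAAACA stood in 15.0%, TGANTCA in 5.71%, CCCCTC in 2.14% and CAGTCACA in 0. TGANTCA and TTANTAA do not contain the CRE core, and a match is a run of letters rather than a shown binding site.

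Library totals were 14691752 to 23232575 counts. A few libraries stood apart for these genes. Plasma 15 min library a had the lowest level of its group for all 19 members, with a summed level of 3180 CPM against 4700 CPM in library b and 4338 CPM in library c. Plasma 10 min library b was highest for 15 members, plasma 15 min library b and plasma 30 min library c for 17 each, and H2O2 library c for 15. Plasma 30 min library a was lowest for 17 members, and control library b was highest for 11. In that control library the chaperone gene hsp104 stood at 737 CPM, beside 209 CPM in control library a and 185 CPM in control library c. The members had a median coefficient of variation of 5.42% with H2O2. It was 13.4% without irradiation and 7.57%, 16.3% and 13.1% at the 3 plasma times in order. The part of these library differences in the results was not tested. The number of genes that met the rule and the counts of calls are given below with single libraries left out. Classes of ratios were recounted only without plasma 15 min library a, plasma 30 min library a or control library b.

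wwm3 (SPBC660.05, chromosome II, 202257 to 203623, plus strand, as deposited) had the highest ratio of the set. It stood at 8.54, 9.07 and 5.09 CPM without irradiation, 446, 474 and 426 CPM at 10 min, 158, 335 and 313 CPM at 15 min, and 181, 211 and 242 CPM at 30 min in libraries a, b and c. The mean at 10 min was 59.3 times that without irradiation, and the mean at 30 min was 0.47 times that at 10 min but still 27.9 times the control mean. Every irradiated library lay above every control library, and the low 15 min value was that of library a. wwm3 had lost 53.8% of its 10 min rise by 30 min, so it came down without returning to its control level. These are bulk libraries, so fewer cells with the transcript and less transcript per cell cannot be told apart here or below.

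pyp2 (SPAC19D5.01, chromosome I, 5202366 to 5205202, plus strand), the Sty1 phosphatase gene, fell the most of all members after its peak. Its levels were 11.4, 13 and 14.9 CPM without irradiation, 351, 329 and 291 CPM at 10 min, 84.3, 208 and 186 CPM at 15 min, and 53.2, 70.1 and 87.3 CPM at 30 min. The 10 min mean was 24.7 times the control mean, and the 30 min mean was 0.22 times the 10 min mean, which left 5.36 times the control level. The 30 min libraries did not overlap those of 10 min or the controls, while plasma 15 min library a (84.3 CPM) fell within the 30 min range.

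SPCC794.04c (chromosome III, 248211 to 250194, minus strand), annotated as a transporter, had nearly the same depth of fall with a different timing. It was at 4.22, 4.89 and 4.02 CPM without irradiation, 73.0, 89.3 and 71.6 CPM at 10 min, 45.1, 88.0 and 72.1 CPM at 15 min, and 16.6, 17.3 and 25.3 CPM at 30 min. Its 10 min mean was 17.8 times the control mean, its 15 min mean was 0.88 times the 10 min mean, and its 30 min mean was 0.29 times the 15 min mean. The 15 min libraries b and c lay inside the 10 min range, so most of its decline came between 15 and 30 min, where that of pyp2 was spread over both intervals.

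Among the regulators, rsv2 and SPCC320.03 had the highest 10 min ratios. rsv2 (SPBC1105.14, chromosome II, 3530760 to 3535288, plus strand) was at 41.8, 55.8 and 40.3 CPM without irradiation, 335, 385 and 348 CPM at 10 min, 187, 325 and 285 CPM at 15 min, and 128, 155 and 181 CPM at 30 min. Its mean at 10 min was 7.74 times that without irradiation, and the 30 min mean was 0.43 times the 10 min mean. SPCC320.03 (chromosome III, 165563 to 170811, minus strand) was at 111, 150 and 147 CPM without irradiation, 546, 595 and 507 CPM at 10 min, 292, 411 and 379 CPM at 15 min, and 196, 261 and 283 CPM at 30 min. Its ratios were 4.04 for 10 min over no irradiation and 0.45 for 30 min over 10 min. In both genes all 15 min libraries lay below all 10 min libraries, and all 30 min libraries above all control libraries. Other genes annotated on the opposite strand overlap 37.2% of the rsv2 interval and 10.9% of that of SPCC320.03, and the counting command set no strand.

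**Figure D1:**
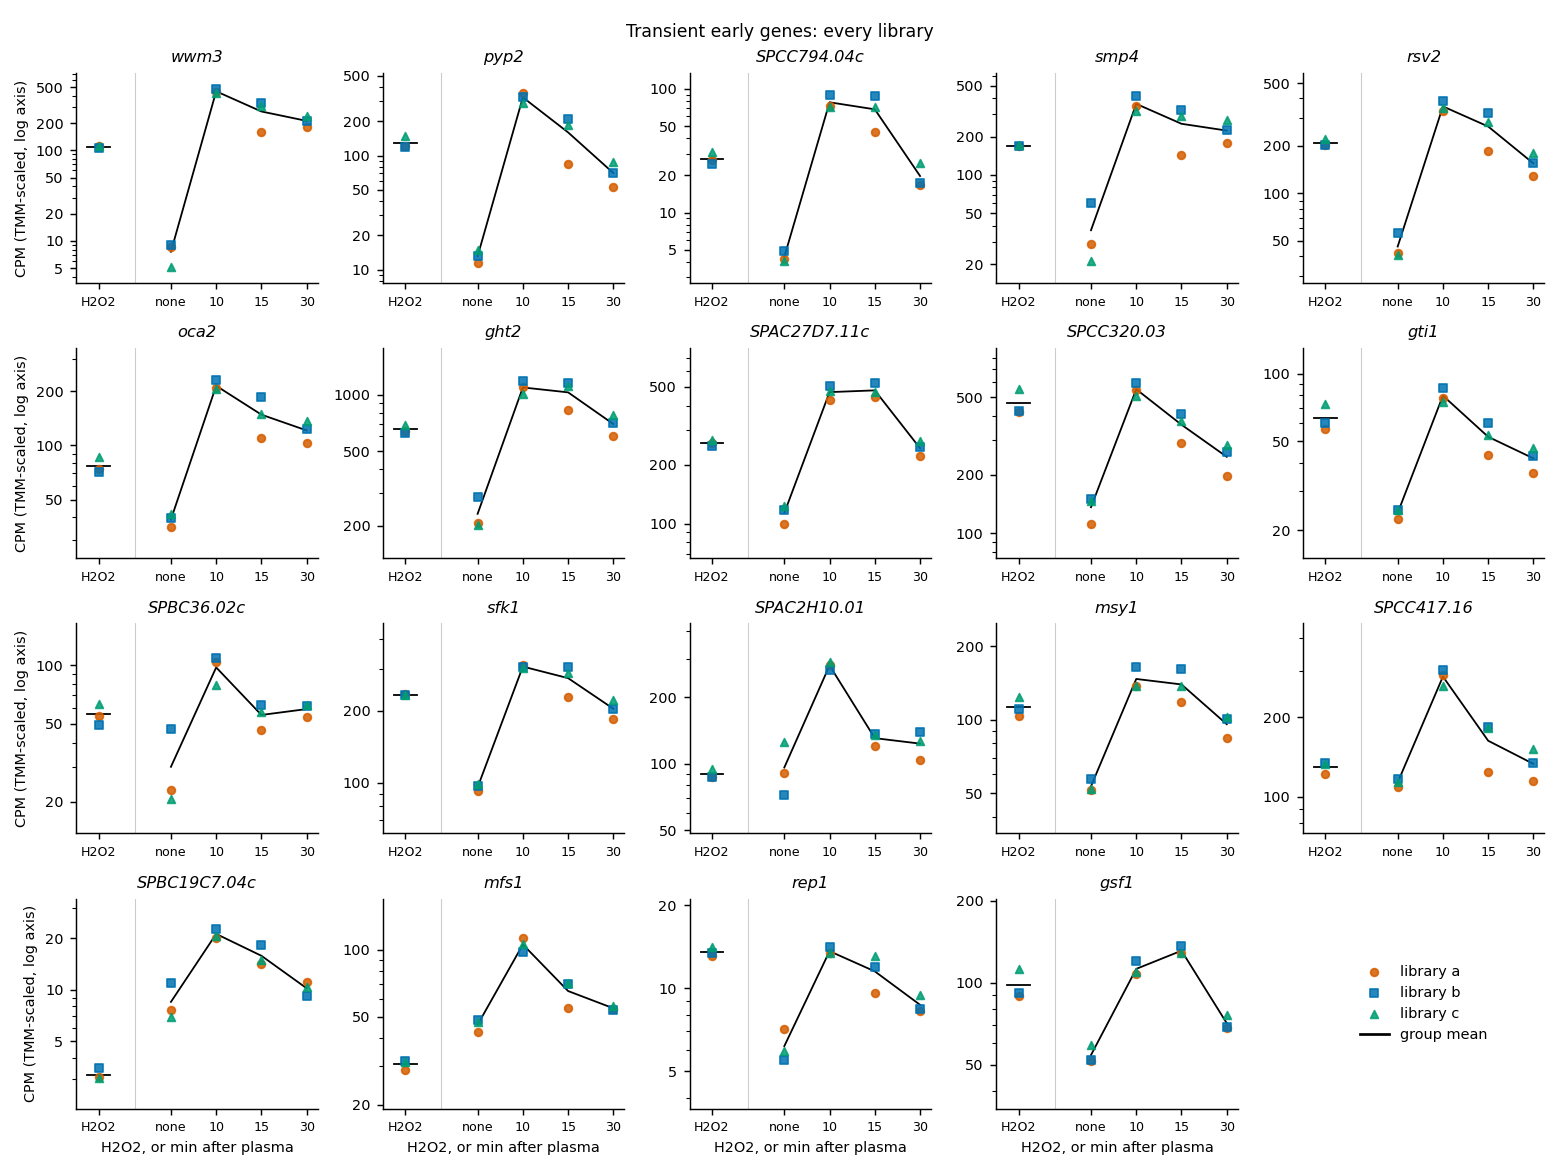
Level of each of the 19 genes in every library (CPM after TMM scaling, log axis, with its own range per panel); H2O2 libraries stand left of the grey line, and no irradiation and 10, 15 and 30 min after plasma right of it, with symbols for libraries a, b and c and black lines for group means. Plasma 15 min library a is the lowest of its group in all 19 panels, and SPAC27D7.11c and gsf1 have their highest mean at 15 min.

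The regulators with smaller rises differed in how soon they came down. SPAC2H10.01 (chromosome I, 5273012 to 5275983, plus strand) was at 90.7, 72.5 and 126 CPM without irradiation, 281, 268 and 289 CPM at 10 min, 120, 137 and 135 CPM at 15 min, and 104, 139 and 127 CPM at 30 min. Its 15 min mean was 0.47 times the 10 min mean, the lowest such ratio of the 19, and its 15 and 30 min libraries overlapped. Most of its decline was thus seen by 15 min, and it had lost 85.1% of its rise by 30 min. gsf1 (SPBC15D4.02, chromosome II, 3011491 to 3015079, plus strand) took the opposite course, with 51.8, 52.1 and 59.1 CPM without irradiation, 108, 120 and 109 CPM at 10 min, 129, 136 and 129 CPM at 15 min, and 68.1, 69 and 76.3 CPM at 30 min. All 15 min libraries of gsf1 lay above all 10 min libraries. gti1 averaged 23.9 ± 1.2 CPM without irradiation, 79.9 ± 6.0 CPM at 10 min, 52.3 ± 8.5 CPM at 15 min and 41.9 ± 5.3 CPM at 30 min (SD, n = 3 each). rep1, the least abundant member, averaged 6.18 ± 0.84 CPM without irradiation, 13.6 ± 0.41 CPM at 10 min, 11.5 ± 1.8 CPM at 15 min and 8.72 ± 0.67 CPM at 30 min (SD, n = 3 each), and its 30 min libraries still lay above those of the controls.

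Among the other signalling genes oca2 had the highest 10 min ratio. oca2 (SPCC1020.10, chromosome III, 758368 to 762656, minus strand) was at 35.5, 39.6 and 41.6 CPM without irradiation, 207, 230 and 205 CPM at 10 min, 110, 185 and 149 CPM at 15 min, and 103, 123 and 137 CPM at 30 min. Its 10 min mean was 5.50 times the control mean and its 30 min mean 0.57 times the 10 min mean. sfk1 averaged 95.7 ± 3.3 CPM without irradiation, 307 ± 3.5 CPM at 10 min, 275 ± 39.7 CPM at 15 min and 204 ± 18.5 CPM at 30 min (SD, n = 3 each). msy1 averaged 53.5 ± 3.1 CPM without irradiation, 147 ± 15.8 CPM at 10 min, 139 ± 21.7 CPM at 15 min and 95.9 ± 10.2 CPM at 30 min (SD, n = 3 each). The 15 min means of sfk1 and msy1 were 0.89 and 0.95 times their 10 min means, and in both genes the libraries of these 2 times overlapped, so their decline was seen at 30 min.

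The transporters also split by timing. ght2 (SPBC4B4.08, chromosome II, 3427180 to 3429424, plus strand) was at 208, 286 and 201 CPM without irradiation, 1094, 1180 and 1010 CPM at 10 min, 825, 1153 and 1113 CPM at 15 min, and 603, 706 and 785 CPM at 30 min. Its 10 and 15 min libraries overlapped, and its 30 min libraries lay below both. mfs1 (SPAC17C9.16c, chromosome I, 4472472 to 4474744, plus strand) was at 42.5, 48.2 and 47.3 CPM without irradiation, 114, 97.7 and 106 CPM at 10 min, 54.5, 70.4 and 70.9 CPM at 15 min, and 54.2, 53.3 and 56.1 CPM at 30 min. It had lost 85.7% of its rise by 30 min, when its libraries still lay above all controls. SPBC36.02c averaged 30.2 ± 14.5 CPM without irradiation, 97.2 ± 15.6 CPM at 10 min, 55.6 ± 8.3 CPM at 15 min and 59.6 ± 4.6 CPM at 30 min (SD, n = 3 each). Its control libraries ran from 20.7 to 46.9 CPM with library b the highest, so the lowest 10 min library was 1.70 times the highest control.

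Of the other members, SPAC27D7.11c (chromosome I, 4529389 to 4531031, minus strand) held its 10 min level at 15 min. It was at 99.6, 118 and 122 CPM without irradiation, 426, 505 and 479 CPM at 10 min, 445, 525 and 470 CPM at 15 min, and 220, 245 and 263 CPM at 30 min. SPBC19C7.04c (chromosome II, 2825251 to 2826700, minus strand) was a low-level gene, at 7.62, 11 and 6.91 CPM without irradiation, 20.1, 22.8 and 20.7 CPM at 10 min, 14.2, 18.4 and 14.9 CPM at 15 min, and a mean of 10.2 ± 0.92 CPM at 30 min (SD, n = 3). Its 30 min libraries overlapped the controls, as did those of SPAC2H10.01. smp4 averaged 36.9 ± 20.9 CPM without irradiation, 360 ± 51.6 CPM at 10 min, 252 ± 95 CPM at 15 min and 223 ± 45.2 CPM at 30 min (SD, n = 3 each), and control library b at 60.5 CPM was the highest of its group. SPCC417.16 averaged 113 ± 4.0 CPM without irradiation, 285 ± 19.6 CPM at 10 min, 163 ± 33.5 CPM at 15 min and 133 ± 18.4 CPM at 30 min (SD, n = 3 each). It lost 88.4% of its rise by 30 min, the most of the 19, and its 30 min libraries ran from 114 to 151 CPM, which overlaps its control range of 109 to 117 CPM.

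Read over the 19 genes, the 15 min means fell into 3 classes. The 15 min mean was at most 0.67 times the 10 min mean in 8 genes (wwm3, pyp2, SPCC320.03, gti1, SPBC36.02c, SPAC2H10.01, SPCC417.16 and mfs1), between 0.67 and 1 times in 9, and at least 1 times in SPAC27D7.11c and gsf1. The working description of a peak at 10 min therefore fits the means of 17 genes, while those 2 had their highest mean at 15 min. Without plasma 15 min library a, the counts were 5, 9 and 5, and SPCC794.04c, ght2 and msy1 joined the genes with no fall by 15 min. At 30 min, 9 genes still stood at least 2-fold above the control mean, 4 stood 1.5 to 2-fold above it, and 6 were at most 1.5-fold above it (SPAC2H10.01, SPCC417.16, SPBC19C7.04c, mfs1, rep1 and gsf1). Without control library b these counts were 10, 3 and 6, as the ratio of SPBC36.02c was 2.73 in place of 1.97. Without plasma 30 min library a they were 11, 2 and 6, with SPBC36.02c at 2.06 and SPCC320.03 just over 2 times the control mean. The 9 genes that stayed at least 2-fold up at 30 min included the 8 with the highest 10 min ratios. These classes are descriptions without a test, since the rule used the 10 and 30 min levels.

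**Figure D2:**
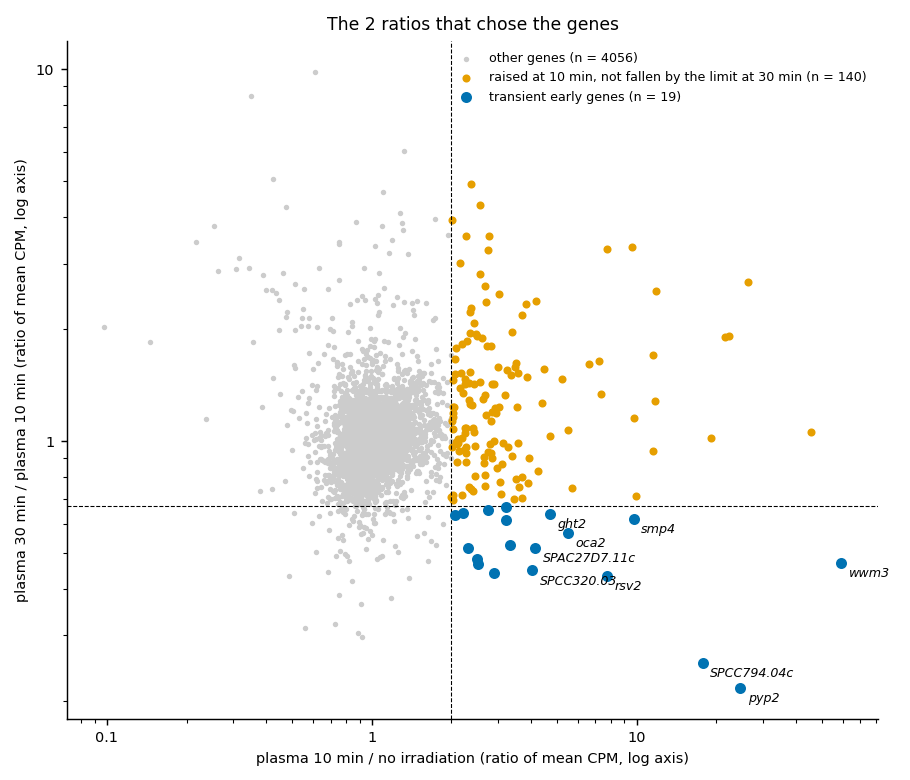
Ratio of mean CPM at 30 min to 10 min (vertical, log axis) against the ratio at 10 min to no irradiation (horizontal, log axis) for 4215 genes of at least 5 CPM; dashed lines are the limits of 2 and 0.67, blue points the 19 genes, orange points the 140 sustained genes and grey points the rest. pyp2 and SPCC794.04c lie lowest, at 0.22 and 0.25, and wwm3 farthest right, at 59.3.

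Members just inside the limit of 2 for the rise were gsf1 at 2.07, rep1 at 2.21 and mfs1 at 2.30, and those just outside, with a fall that met the other limit, were SPBC18H10.05 at 1.85, SPAC1071.13 at 1.75 and SPAPB1A11.06 at 1.68. For the fall the members nearest the limit were sfk1 at 0.665, msy1 at 0.653 and rep1 at 0.639, and the genes just outside were pdr1 at 0.695, SPAC16A10.01 at 0.698 and git5 at 0.701. At the level minimum the lowest members were rep1 at 10.7 CPM and SPBC19C7.04c at 11.8 CPM. Of the tested genes under 5 CPM that are not SPNCRNA, 7 met both ratio limits, the highest of them SPAC1002.20 at 1.46 CPM.

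Levels between genes are compared per kilobase of the deposited transcript. At 10 min smp4 had 490 CPM per kb, ght2 488, SPCC417.16 398 and wwm3 328, the highest values of the set on that scale. rep1 with 6.36 CPM per kb and gti1 with 11.6 CPM per kb had the lowest. The size of the rise did not follow that order, since pyp2 with a 24.7-fold rise stood at 114 CPM per kb and SPCC417.16 with a 2.51-fold rise at 398.

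At 15 min after plasma, 9 of the 19 genes were higher than with H2O2, a comparison in which no library entered the ratios that chose the genes. They were wwm3, SPCC794.04c, oca2, ght2, SPAC27D7.11c, SPAC2H10.01, SPBC19C7.04c, mfs1 and gsf1, by edgeR's quasi-likelihood test with Benjamini-Hochberg adjustment over 5214 genes at 0.05. The share of all tested genes called higher was 9.90%, and 35 of the 140 sustained genes were called higher. The rule asked for a rise 10 min after plasma and nothing of H2O2. That choice favours genes that respond to plasma, so nothing is read from the difference from the share of all genes. Lower calls were 0 of the 19 by edgeR and 0 by DESeq2, with 2 (SPCC320.03 and gti1) at an unadjusted p under 0.05, beside 13.2% of all tested genes and 19 of the sustained genes called lower. With the library letter as a block, which the labels do not give as a batch, edgeR called SPCC320.03 and gti1 lower. It then also called sfk1, msy1 and SPCC417.16 higher. The median log2 fold change was 0.42 for the 19 genes, 0.17 for the sustained genes and 0.01 for all genes tested.

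SPBC19C7.04c differed the most. Its libraries had 14.2, 18.4 and 14.9 CPM at 15 min after plasma and a mean of 3.20 ± 0.25 CPM with H2O2 (SD, n = 3), a log2 fold change of 2.30 ± 0.17 (SE, adjusted p = 1.12e-07). mfs1 had 54.5, 70.4 and 70.9 CPM at 15 min and 28.9, 31.7 and 31.4 CPM with H2O2, a log2 fold change of 1.09 ± 0.09 (SE, adjusted p = 4.02e-07). In both genes the H2O2 libraries lay below all other libraries of the study. SPNCRNA.991 on the opposite strand overlaps 33.3% of the mfs1 interval.

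The other called genes were higher after plasma by 0.42 to 1.33 on the log2 scale. wwm3 had 158, 335 and 313 CPM at 15 min and 111, 106 and 112 CPM with H2O2, which gave 1.29 ± 0.21 (SE, adjusted p = 0.000384). SPCC794.04c had 45.1, 88.0 and 72.1 CPM at 15 min and 26.8, 24.5 and 30.8 CPM with H2O2, which gave 1.33 ± 0.20 (SE, adjusted p = 0.000143). For these 2 genes even the low 15 min library a lay above every H2O2 library. oca2, with 74.5, 71.7 and 86.1 CPM with H2O2, differed by 0.94 ± 0.15, and SPAC27D7.11c, with 259, 250 and 268 CPM with H2O2, by 0.89 ± 0.09. ght2 differed by 0.66 ± 0.14, SPAC2H10.01 by 0.55 ± 0.15 and gsf1 by 0.42 ± 0.08 (SE). Libraries of the 2 treatments did not overlap in any of the 9 genes, against 21.0% of all tested genes with every 15 min library above every H2O2 library.

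For the 10 genes not called, the log2 fold change was between -0.37 and 0.57. pyp2 had 84.3, 208 and 186 CPM at 15 min and 122, 118 and 148 CPM with H2O2, a difference of 0.31 with an unadjusted 95% interval of -0.23 to 0.84. rsv2 had 187, 325 and 285 CPM at 15 min and 204, 202 and 222 CPM with H2O2, a difference of 0.34 with an interval of -0.03 to 0.72. In both genes the H2O2 libraries lay between plasma library a and the other two. SPCC320.03 had 292, 411 and 379 CPM at 15 min and 421, 423 and 553 CPM with H2O2, a log2 fold change of -0.37 ± 0.16 (SE, adjusted p = 0.107), and its 2 sets of libraries did not overlap. rep1 was the other gene with every 15 min library below every H2O2 library, which was the case for 22.3% of all tested genes. The intervals of pyp2, rsv2 and smp4 (-0.12 to 1.25) leave room for differences in either direction.

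Plasma 15 min library a decided part of this count. Without it, 15 of the 19 genes were higher after plasma than with H2O2, the 6 added being pyp2, smp4, rsv2, sfk1, msy1 and SPCC417.16. The share of all tested genes called without that library was not counted, so the gain is not read as particular to these genes. Leaving out any other library of these 2 groups gave 9 or 10 genes. All 9 calls were also made without library a.

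**Figure D3:**
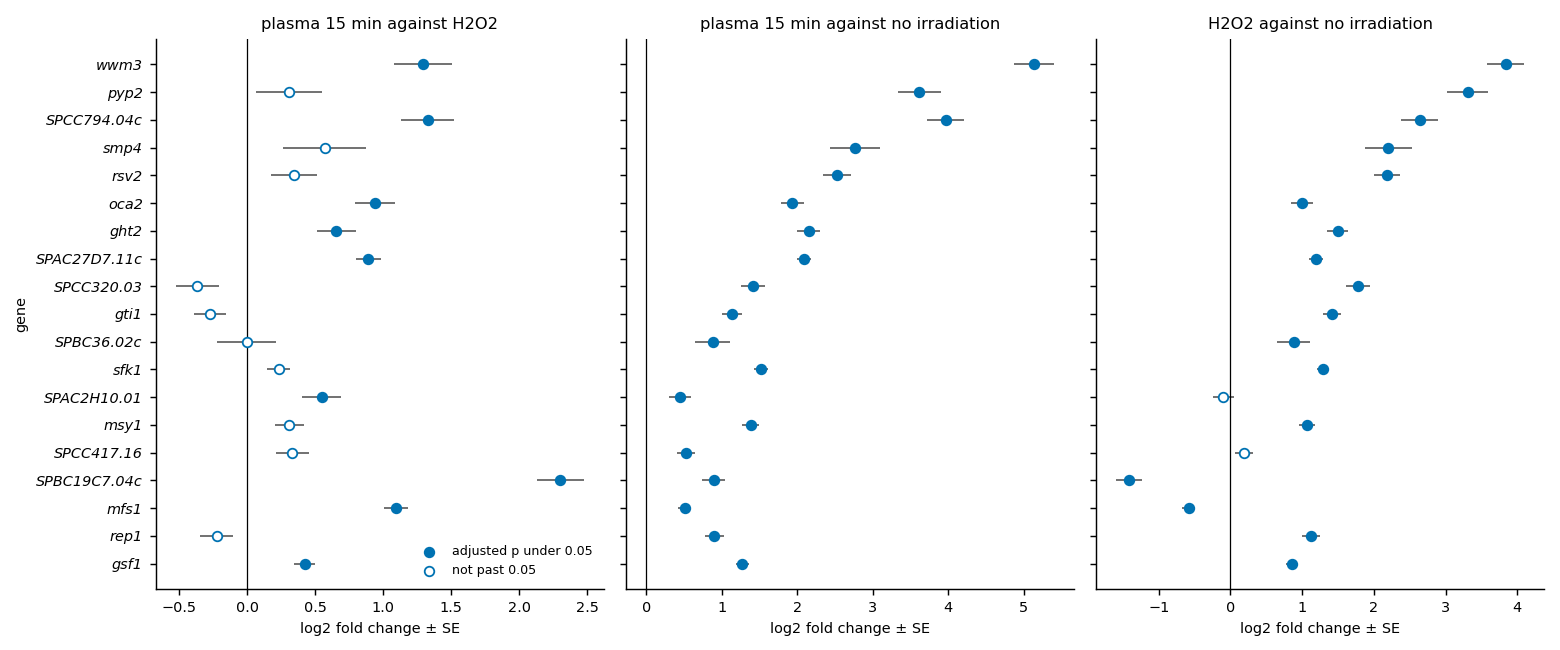
Fitted log2 fold change of each of the 19 genes (points, bars are SE) for plasma 15 min against H2O2, plasma 15 min against no irradiation and H2O2 against no irradiation; filled points have adjusted p under 0.05. All 9 filled points in the left panel lie right of 0, and the filled points of SPBC19C7.04c and mfs1 lie left of 0 in the right panel.

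Against no irradiation, all 19 genes were still higher at 15 min (edgeR, adjusted p under 0.05), where 27.1% of all tested genes were called higher. The 3 control libraries also entered the rule, so the choice of the genes favours higher calls and nothing is read from the difference from the background share. None was called lower, by edgeR, by DESeq2 or at an unadjusted p under 0.05, where 24.8% of all tested genes were lower. In 17 of the 19 every 15 min library lay above every control library, as in 28.9% of all tested genes. The log2 fold changes ran from 0.45 for SPAC2H10.01 to 5.13 for wwm3 with a median of 1.41, beside 1.64 for the sustained genes and -0.00 for all genes tested. The smallest, SPAC2H10.01 with 0.45 ± 0.15 (SE, adjusted p = 0.0182), had overlapping libraries, at 120, 137 and 135 CPM at 15 min against 90.7, 72.5 and 126 CPM without irradiation. Its call was lost without plasma 15 min library b (adjusted p = 0.0601), without control library a (0.0642), without control library b (0.0712) and in a fit of these 2 groups alone (0.0677), and it held in every other setting run.

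With H2O2, 15 of the 19 genes were higher than in the same control libraries and 2 were lower, where 28.5% and 25.6% of all tested genes were called. The control libraries are those the rule used, which chose genes for a low control level relative to 10 min, so the choice favours higher calls and nothing is read from the difference from the background share. Both counts were the same when any 1 of the 6 libraries was left out, control library b included. The largest rises were those of wwm3, at 110 ± 2.9 CPM with H2O2 against 7.57 ± 2.2 CPM without irradiation, and pyp2, at 129 ± 16.3 CPM against 13.1 ± 1.8 CPM (SD, n = 3 each). Their log2 fold changes were 3.84 ± 0.26 and 3.31 ± 0.28 (SE, adjusted p = 8.73e-09 and 1.30e-07). Of the regulators, SPCC320.03 rose by 1.78, rsv2 by 2.18, gti1 by 1.41 and gsf1 by 0.85 on the log2 scale, and rep1 averaged 13.6 ± 0.49 CPM with H2O2 against 6.18 ± 0.84 CPM without irradiation (SD, n = 3 each). By mean CPM, 12 of the genes were at least 2-fold up, among them the 5 with the highest 10 min ratios, and the rises of the other called genes were 1.80-fold to 1.99-fold. Without control library b, 14 were at least 2-fold up, SPBC36.02c (2.56) and oca2 (2.01) being added.

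The 2 lower genes were SPBC19C7.04c, at 3.20 ± 0.25 CPM with H2O2 against 8.50 ± 2.2 CPM without irradiation, and mfs1, at 30.6 ± 1.5 CPM against 46.0 ± 3.1 CPM (SD, n = 3 each). Their log2 fold changes were -1.41 ± 0.18 and -0.58 ± 0.09 (SE, adjusted p = 7.45e-06 and 7.50e-05), and every H2O2 library lay below every control library, as in 29.0% of all tested genes. In 16 of the 19 genes every H2O2 library lay above every control library, as in 29.8% of all tested genes. At 15 min after plasma both genes were above the same controls, by 0.89 ± 0.15 and 0.51 ± 0.09 on the log2 scale (SE). SPAC2H10.01, at 89.6 ± 4.8 CPM with H2O2 against 96.2 ± 26.9 CPM without irradiation, and SPCC417.16, at 130 ± 6.9 CPM against 113 ± 4.0 CPM (SD, n = 3 each), were not called, with adjusted p of 0.587 and 0.20. In a fit of the H2O2 and control libraries alone SPCC417.16 passed, with 0.20 on the log2 scale (adjusted p = 0.0221). At 10 min after plasma these 2 genes stood 2.90 and 2.51 times above the control mean.

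Of the gene lists looked at, 5 held a member. The lists for the Pmk1 pathway, calcium and calcineurin, heat shock and chaperones, and RNA binding and mRNA decay held none. Nor did those for ribosome biogenesis, glucan enzymes, sexual differentiation and nitrogen starvation, ubiquitin and protein quality control, and translation stress. All lists were written from textbook knowledge, but with earlier results of these data known, so they are not independent of the data. The counts of calls against no irradiation share the control libraries. Of the 4215 genes that met the level and identifier limits, 3.77% were raised at least 2-fold at 10 min. Of those 159 raised genes, 19 met the limit for the fall. In the Sty1 cascade list, 6 of 22 genes were raised at least 2-fold at 10 min, and 1 of these, pyp2, met the limit for the fall. The others were the kinase gene srk1, at 5.53 times the control mean at 10 min and 1.07 times its 10 min level at 30 min, pcr1 (3.12 and 0.87), the phosphorelay gene mpr1 (2.65 and 0.87), the phosphatase gene ptc1 (2.24 and 1.09) and atf1 (2.19 and 1.02). At 15 min 12 of the 22 were called higher and 1 lower than without irradiation by edgeR, with 2 lower by DESeq2 and at an unadjusted p under 0.05, where 27.1% and 24.8% of all tested genes were called. The median log2 fold change of the list was 0.25, beside -0.00 for all genes. With H2O2, 14 were called higher and 0 lower by edgeR, with 1 lower at an unadjusted p under 0.05 and 1 by DESeq2, and the shares of all genes were 28.5% and 25.6%. At 15 min, 5 of the 22 were called lower than with H2O2 by edgeR, 6 by DESeq2 and 7 at an unadjusted p under 0.05, and 0 were higher by any of the 3. Over all genes tested 13.2% were lower and 9.90% higher, and the median log2 fold change of the list was -0.06, beside 0.01 for all genes.

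In the core environmental stress list 26 of 36 tested genes were raised at least 2-fold at 10 min, beside 3.77% of the 4215 genes. Of the 26, 3 (wwm3, pyp2 and rsv2) met the limit for the fall, beside 19 of the 159 raised genes. Counts of raised genes in the lists did not ask for the minimum of 5 CPM. The 26 include hsp3102 and ssd2, at 1.84 and 3.97 CPM at 10 min. At 15 min 34 of the 36 were called higher and 1 lower than without irradiation, where 27.1% and 24.8% of all tested genes were called, and the median log2 fold change was 1.98. Against H2O2, 7 were called higher and 8 lower, where 9.90% and 13.2% of all tested genes were called, and the median was 0.16. Of 42 tested stress and nutrient transcription factor genes, 5 were raised at least 2-fold at 10 min, beside 3.77% of the 4215 genes. Of these, 1 (rsv2) fell by the limit. The 5 include mbx2, at 0.40 CPM at 10 min and 0.19 CPM without irradiation. At 15 min 23 of the 42 were called higher and 5 lower than without irradiation, beside the same shares of 27.1% and 24.8% of all genes, with a median log2 fold change of 0.19.

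mfs1 stood in the Pap1 list, of which 6 of 17 tested genes were raised at least 2-fold at 10 min, beside 3.77% of the 4215 genes. Of the 6, 1 (mfs1) met the limit for the fall, beside 19 of the 159 raised genes. The catalase gene ctt1 was at 2.53 times its 10 min level at 30 min, the sulfiredoxin gene srx1 at 1.91 times and the multidrug transporter genes caf5 at 4.32 times and bfr1 at 1.43 times, while mfs1 was at 0.52 times. At 15 min 15 of the 17 were called higher and 2 lower than without irradiation, where 27.1% and 24.8% of all tested genes were called, with a median log2 fold change of 1.49. Against H2O2 2 were called higher, mfs1 among them, and 13 lower, where 9.90% and 13.2% of all tested genes were called, with a median of -0.80. In the MBF list, 1 gene of 18 tested, rep1, was raised at least 2-fold at 10 min, beside 3.77% of the 4215 genes. At 15 min 4 of the 18 were called higher and 11 lower than without irradiation, with a median log2 fold change of -0.37. The share of the MBF list called higher was near the 27.1% of all tested genes, and 24.8% of all tested genes were called lower.

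Gene structure was not used by the rule. The 5′ leader was taken as the RefSeq exon bases from transcript start to coding start, without introns. Its median was 468 bases in the 17 members with an annotated start, against 199 bases in 121 sustained genes. In all 3885 coding genes of at least 5 CPM with an annotated start the median was 99 bases. The leader was at least 500 bases long in 8 of 17 members, or 47.1%, against 17.4% of the sustained genes and 6.87% of the background. The longest were those of oca2 (1771 bases), gsf1 (1422), msy1 (1176), SPAC2H10.01 (1149) and gti1 (1058), and 1.65% of the background reached 1000 bases. At the other end were rsv2 with 3 bases and mfs1 with 81. A second measure was the distance on the genome from the deposited start to the coding start, which counts any introns between them. Both the start and the measure thus differ from those above. By it rsv2 had 2171 bases, and the median was 634 bases over all 19 members. At least 500 bases were found in 10 of 19, against 27.9% of the sustained genes and 14.1% of the background. Of the members, 17 had no intron (89.5%), against 84.3% of the sustained genes and 50.6% of the background. These shares are descriptions without a test.

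**Figure D4:**
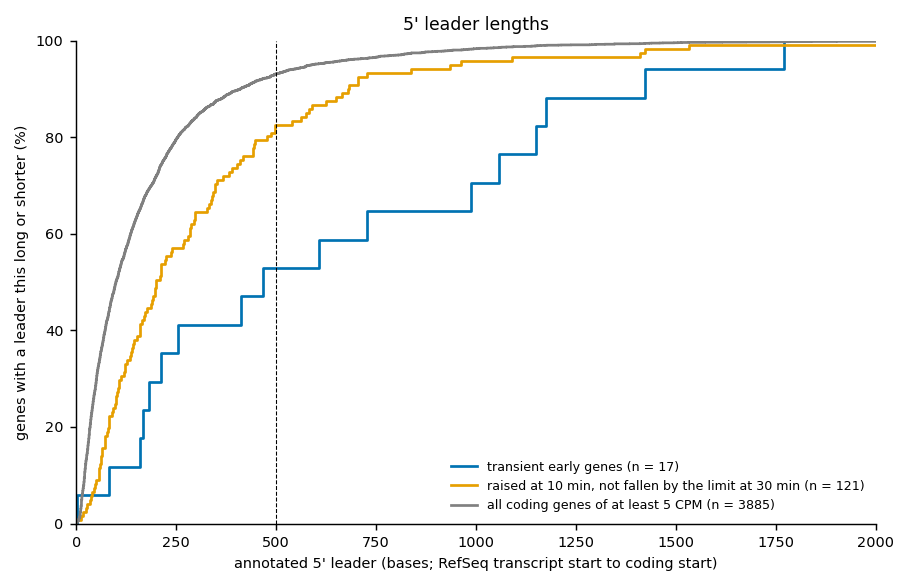
Cumulative share of genes (vertical, percent) by annotated 5′ leader length (horizontal, bases) for the 17 members with an annotated start, 121 sustained genes and all 3885 coding genes of at least 5 CPM, which include both. At the dashed line of 500 bases, 47.1% of the members lie to the right, against 17.4% of the sustained genes and 6.87% of all.

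The 19 genes were spread over the genome, 5 on chromosome I, 7 on chromosome II and 7 on chromosome III, which carries 18.2% of the coding genes. The closest pair lay 34796 bases apart, and no member was next to another. Of their 38 nearest coding neighbours 28 had at least 5 CPM, and 7 of the 28 were raised at least 2-fold at 10 min, where 3.77% of the 4215 genes were. The raised neighbours included wwm2 beside wwm3, at 2.82 times the control mean at 10 min and 1.80 times its 10 min level at 30 min, SPCC191.01 beside SPCC417.16 (4.40 and 1.27) and eis1 beside sfk1 (2.71 and 1.18). None of these 7 neighbours met the limit for the fall. The median 10 min ratio of the 28 was 1.09. Next to SPBC36.02c, the genes SPBC36.01c and mfs3 stood at 0.61 and 0.66 times their 10 min level at 30 min, after 10 min ratios of 1.22 and 1.03.

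The deposited intervals of 11 members overlap another annotated gene, over at most 37.2% of the length (rsv2), and 8 overlap none. The counting command neither used the strand nor assigned reads that fall in 2 genes, which bears on rsv2, mfs1, SPCC417.16 (20.9%), gti1 (17.9%) and SPCC320.03. Reads of an unlisted antisense transcript could not be told from those of the gene.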

How the data were processed

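RNA was sequenced from 15 libraries of wild-type JY450 cells, 5 groups of 3. Per the labels' protocols, total RNA came from a hot phenol extraction and went into stranded mRNA libraries. Per the submitters' processing notes, the build is R64 and the tools were HISAT2 2.2.1 and SAMtools 1.13. Read pairs were counted per gene over transcript features with featureCounts 2.0.1, per the file headers, without use of the strand. The deposited values are raw counts, in a table of 12 plasma and control libraries and a table of 3 H2O2 libraries, each with 6998 genes, which were joined on the gene identifier. R64 names a budding yeast build, yet identifiers and positions are those of fission yeast. The reference ASM294v3 (RefSeq) gave 6852 identifiers a match, and the coding sequence of 5140 of 5144 matched coding genes lay inside its deposited interval on the same strand.

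From these counts, filterByExpr kept 5214 genes, and TMM-scaled library sizes gave CPM. All 15 libraries were fitted in edgeR 4.0.16 (R 4.3.3; quasi-likelihood F-test, two-sided, 1 mean per group). The common biological coefficient of variation was 8.80%. The p-values were adjusted over all 5214 genes by the Benjamini-Hochberg method at 0.05. All adjusted p-values are from that fit unless DESeq2 1.42.0 is named. Only plasma 15 min against H2O2, and each of these against no irradiation, were tested. Neither the 15 min nor the H2O2 libraries entered the ratios of the rule, while the control libraries did, so the comparison of plasma 15 min with H2O2 alone is free of them. The rule still chose genes for a rise after plasma, which favours higher calls after plasma in that comparison too. The level minimum and the scaling used all libraries. Intervals are at 95% with the residual degrees of freedom and are unadjusted. Replicates differed from each other by more than counting error, with a chi-square per degree of freedom of 8.94 to 79.7 over 15 pairs, so no library was a repeat of another. The fit was tested on simulated data with known changes.

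The 19 genes, the lists and the tests were chosen with earlier results of these data known. Every member could be named, with the 3 genes nearest outside each limit. Neighbours and list genes beyond these were named after their values were seen. Alternatives were other scalings, DESeq2, other filters, fewer groups, a replicate block, a 2-fold minimum and leaving out each library. Added after the data were seen were windows and leaders from the deposited starts, the 15 min classes without library a, and the 30 min and H2O2 classes without control library b or plasma 30 min library a.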

Additional observations from a re-analysis of the deposited data

Results flagged for a closer look

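SPBC19C7.04c and mfs1 moved in opposite directions with the 2 treatments. Both were higher 15 min after plasma than without irradiation and lower with H2O2 than without irradiation, and the direct difference between plasma at 15 min and H2O2 was 2.30 on the log2 scale for SPBC19C7.04c and 1.09 for mfs1, each past an adjusted p of 0.05 by edgeR. SPBC19C7.04c averaged 15.8 ± 2.2 CPM at 15 min after plasma, 3.20 ± 0.25 CPM with H2O2 and 8.50 ± 2.2 CPM without irradiation (SD, n = 3 each). mfs1 averaged 65.3 ± 9.3 CPM at 15 min after plasma, 30.6 ± 1.5 CPM with H2O2 and 46.0 ± 3.1 CPM without irradiation (SD, n = 3 each). Both changes share the control libraries, and the dose and duration of H2O2 were not matched to plasma. Antisense genes overlap both intervals, over 33.3% for mfs1 and at most 4.83% for SPBC19C7.04c, and their part in the values was not tested.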

How the results depend on the processing

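The number of genes that met the rule was 18 with RLE size factors, 19 with total counts, without a low-count filter and with geometric means, and 14 to 23 when 1 library was left out. Without plasma 10 min library b, smp4, ght2, sfk1, msy1 and gsf1 no longer met it, and without plasma 30 min library a smp4, ght2, sfk1 and msy1 did not. Of the 19 genes, 9 were higher at 15 min after plasma than with H2O2. Asking for at least 2-fold left 4, and leaving out 1 library gave 9 to 15. The shares of all tested genes called under other settings were not counted. Genes lower in that comparison were 0 to 1 when 1 library was left out, the 1 being gti1 without plasma 15 min library b. The labels do not say that libraries with the same letter were handled together. Deviations from the group means correlated above 0.1 in 23 of 30 same-letter pairs (median 0.19, against -0.11 for other pairs), and 12 of 15 libraries correlated best with their own letter, a hint from the data and not from the design, and the first did not hold in every pair. A replicate block on the letter gave 2 lower genes in that comparison, SPCC320.03 (-0.38 on the log2 scale, adjusted p = 0.0218 by edgeR) and gti1 (-0.28, 0.0331), and 12 higher genes, adding sfk1, msy1 and SPCC417.16. It changed no count of calls against no irradiation. With at least 2-fold, 1 gene was lower with H2O2 than without irradiation in place of 2. SPBC36.02c, with -0.01 on the log2 scale for plasma 15 min against H2O2, turned to 0.0216 with total counts, to 0.00303 in a fit of these groups alone, and ranged from -0.10 to 0.10 when 1 library was left out. SPAC2H10.01, with -0.10 for H2O2 against no irradiation, ranged from -0.26 to 0.13, positive without control library c. None of these was called. Over the single genes, 273 of 285 values under other settings and 328 of 342 without 1 library kept their direction and their side of 0.05. rep1 and SPBC19C7.04c are the lowest members, so counting error weighs most there.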
